A study of Arabidopsis thaliana with 15 samples.

Results

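Dirigent proteins are a plant family whose listed Arabidopsis thaliana loci were followed here across 5 sorted root cell populations. The list held 10 loci. It was drawn up with results of these arrays known, 2 of the loci (AT4G13580 and AT2G39430) through their signal in the endodermis, so every endodermis value of a member below is a description with no test. Of the 10 loci, 7 had a probe set naming them alone, out of 13333 loci named in this way on the array. AT1G07730 lay only on a probe set shared with AT1G07740, and AT3G24020 and AT3G55230 had no named probe set. Among the 7, 5 passed the filter on low signal, which asked for a value above the 40th percentile of its array on at least 3 arrays: AT4G13580, AT2G39430, AT2G21100, AT4G11190 and AT1G55210. The 3 endodermis arrays alone were enough to satisfy that filter, so these 5 do not stand for the listed loci as a whole.

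Dirigent proteins do not oxidise phenols themselves. Laccases and peroxidases turn monolignols into radicals, and a dirigent protein steers how those radicals couple, which for some members sets the stereochemistry of a lignan. In the root endodermis a dirigent-domain protein, ESB1, is needed for the orderly deposition of lignin in the Casparian strip, the wall band that seals the space between endodermal cells. Its locus, AT2G28670, is not among the loci listed above and had no named probe set, so no value is given for it.

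All plants were of ecotype Columbia, grown for 5 days on standard medium and then moved for 3 h to sulfur-deficient medium, a treatment that every group shared, before the roots were made into protoplasts and sorted by fluorescence. Each population was defined by 1 marker line and had 3 arrays: columella by Pet111, epidermis with lateral root cap by pWER::GFP, cortex by pCOR::GFP, endodermis with quiescent center by pSCR::GFP and stele by pWOL::GFP. A population therefore holds whatever cells the promoter or trap lights up, the endodermis population including the quiescent center. Arrays from full medium were not analysed here, and the labels do not say whether replicates were planted separately. The p-values below therefore speak of the scatter among these arrays, part of which may be technical.

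Several arrays stood apart from their labels. By correlation over all probe sets tested, 12 of 15 arrays were nearest to another array of their own population. The array labelled epidermis replicate 2 was nearest to stele replicate 2 (r = 0.973), against at most 0.826 within the epidermis, and stele replicate 1 was nearest to epidermis replicate 3 (r = 0.965), against at most 0.845 within the stele. Stele replicate 2 was the remaining exception, with epidermis replicate 2 as its nearest array. Results are therefore given with all 15 arrays and without epidermis replicate 2 and stele replicate 1 together. Of the 6 listed endodermis markers, 3 had a named probe set (GSO1, AT1G14580 and AT4G28100). Their summed normalized signal was 4004 to 4790 in the endodermis, 1337 to 1562 in the cortex, 76.0 to 304 in the stele, 59.9 to 541 in the epidermis and 47.0 to 67.8 in the columella, and none of the 3 was at 0. In the endodermis and cortex most of the sum came from GSO1, at 3322 to 4076 and 1102 to 1348. AT1G14580 was at 206 to 294 and 21.6 to 53.7 there, and AT4G28100 at 326 to 433 and 98.3 to 209.

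AT4G13580 had a normalized signal of 11985, 9427 and 11827 on endodermis replicates 1, 2 and 3. Signal here is the deposited Affymetrix intensity after quantile normalization, and it cannot be set against that of another probe set. In the columella it was 83.1, 104 and 139, and in the cortex 152, 151 and 104. The epidermis arrays gave 4.20, 1053 and 11.8, and the stele arrays gave 2.41, 687 and 76.1. The endodermis arrays did not overlap with any other array, while the epidermis and stele each held 1 array, replicate 2, far above its partners. The endodermis mean was 11080 ± 1433 (SD, n = 3), and the endodermis lay 6.61 ± 1.01 (SE) above the mean of the other 4 populations on the log2(signal + 16) scale. In bulk samples of this kind, fewer cells of a type and less RNA per cell cannot be told apart.

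AT2G39430 had a normalized signal of 5737, 4057 and 6738 on the endodermis arrays, with a mean of 5511 ± 1355 (SD, n = 3). Elsewhere it was 51.7, 43.3 and 57.9 in the columella, 56.1, 63.6 and 54.3 in the cortex, 29.7, 212 and 36.2 in the epidermis and 28.8, 140 and 28.4 in the stele. Again the endodermis stood clear of the other 12 arrays, and replicate 2 of the epidermis and of the stele came next. The log2 difference of the endodermis from the other 4 populations was 6.23 ± 0.43 (SE).

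For AT2G21100 the endodermis arrays lay close together, at 1549, 1448 and 1551 with a mean of 1516 ± 58.7 (SD, n = 3). The other populations were near the floor of the array. The columella gave 29.2, 15.4 and 14.6, the epidermis 33.5, 63.2 and 4.18, the cortex 4.64, 18.9 and 16.2 and the stele 2.16, 56.8 and 17.2. Most of these values were under the low-signal threshold of 32.9, so the order among the 4 populations is not resolved. The log2 difference of the endodermis from the rest, 5.45 ± 0.39 (SE), depends on the pseudocount for that reason and ran from 4.21 to 6.48 over the alternative settings.

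AT4G11190 gave 2059, 1366 and 3250 in the endodermis, with a mean of 2225 ± 953 (SD, n = 3). The cortex arrays followed at 113, 105 and 68.2, the columella was at 9.39, 31.3 and 26.5, the epidermis at 1.19, 117 and 0.865 and the stele at 1.67, 81.3 and 22.6. All 3 cortex arrays were above all 3 columella arrays, and the lowest endodermis array was 11.7 times the highest array elsewhere. The endodermis difference was 5.44 ± 0.56 (SE) in log2, and it ran from 4.38 with a pseudocount of 64 to 6.52 with a pseudocount of 1.

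AT1G55210 had a broader pattern than the other 4. Its normalized signal was 1599, 734 and 1646 in the endodermis, with a mean of 1326 ± 514 (SD, n = 3), and 413, 514 and 572 in the cortex. The stele arrays gave 28.3, 342 and 430, the epidermis 5.62, 387 and 39.0 and the columella 136, 145 and 92.0. Endodermis replicate 2 was only 1.28 times cortex replicate 3, the highest array outside the endodermis. The same ratio of lowest endodermis array to highest other array was 8.95 for AT4G13580, the 11.7 above for AT4G11190, 19.2 for AT2G39430 and 22.9 for AT2G21100. Against the mean of the other 4 populations the endodermis difference of AT1G55210 was 2.81 ± 0.72 (SE), and against the cortex alone it was 1.30 ± 0.91 (SE), where the other 4 members ranged from 4.26 to 6.20.

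**Figure D1:**
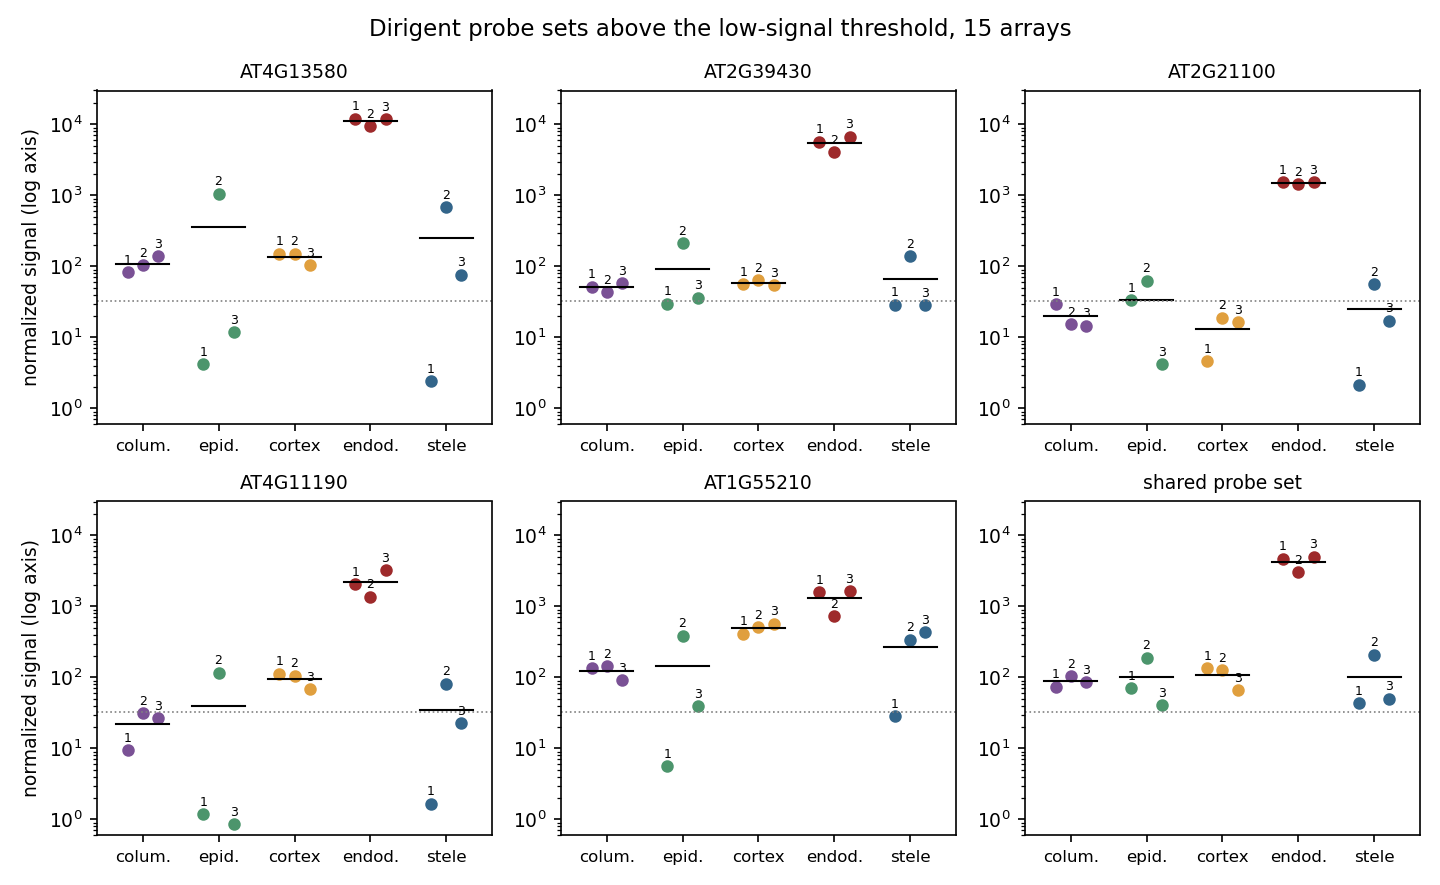
Normalized signal (log axis) on each of the 15 arrays for the 5 dirigent loci that passed the low-signal filter and for the probe set shared by AT1G07730 and AT1G07740; points are arrays numbered by replicate, horizontal bars are population means of the signal, and the dotted line is the low-signal threshold of 32.9. The 3 endodermis arrays lie above all other arrays in every panel, by 1.28 times for AT1G55210 and by 8.95 times or more in the other panels.

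On each of the 5 probe sets, the lowest endodermis array exceeded the highest of the other 12, which 4.28% of all probe sets tested did (4.71% without the pair of arrays that stood apart). The fit called 5 of 5 higher in the endodermis, against 7.83% of all probe sets tested with 15 arrays and 9.17% without that pair. The median difference was 5.45 for these 5 and -0.09 for all probe sets tested. The endodermis signal of 2 listed loci drew attention to the family and the list was written with these results known, so nothing is read from these counts.

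The probe set that the platform annotation gives to both AT1G07730 and AT1G07740 had endodermis values of 4716, 3050 and 5030. The other 12 arrays ranged from 40.4 to 209. It therefore had an endodermis difference of 5.32 ± 0.40 (SE) in log2, but its signal cannot be assigned to the dirigent locus and it was kept out of all counts. The 2 listed loci under the filter were below the threshold on all 15 arrays, where values have no reliable order between populations. AT1G65870 was between 1.26 and 32.8, and AT1G22900 between 1.06 and 7.71. By contrast AT2G21100, the member nearest to the filter, exceeded it on 6 of 15 arrays and AT4G11190 on 8.

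Within the endodermis, replicate 2 was the lowest of the 3 arrays for 5 of the 5 members, as it was for 39.7% of all probe sets tested and 53.8% of the 1262 called higher in the endodermis. The 3′ to 5′ signal ratio of the actin control probe sets, a measure of how complete the labelled RNA is, was 43.0 on that array against 6.56 and 7.15 on the other endodermis arrays, and between 9.40 and 28.3 elsewhere. The corresponding GAPDH ratio was 1.31 against 1.39 and 1.56. The part of this in the members' values was not tested.

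Epidermis replicate 2 and stele replicate 2 were the highest arrays outside the endodermis for AT4G13580, AT2G39430 and AT2G21100. Epidermis replicate 2 was at 9.50% of the endodermis mean for AT4G13580, 3.84% for AT2G39430, 4.17% for AT2G21100, 5.25% for AT4G11190 and 29.2% for AT1G55210. Stele replicate 2 was at 6.20%, 2.54%, 3.75%, 3.65% and 25.8% of it for the same loci in that order. Epidermis replicate 2 exceeded both other epidermis arrays by at least 1 log2 unit for 4 of 5 members, which 9.84% of all probe sets tested and 34.2% of those called higher in the endodermis did. For stele replicate 2 the corresponding count was 4 of 5, against 0.955% and 2.69%. The summed endodermis markers moved with these values, at 541 on epidermis replicate 2 against 59.9 and 65.8 on its partners, and at 304 on stele replicate 2 against 76.0 and 122. Most of the 541 came from GSO1 at 483, while AT1G14580 was at 7.13 and AT4G28100 at 51.3. On stele replicate 2, AT1G14580 (9.64) was below its value on stele replicate 1 (15.7), so not every endodermis marker was higher there. The 2 named markers of the stele, out of 3 listed, also moved on these arrays, with a summed signal of 1534 on epidermis replicate 2 against 402 and 243 on its partners, and of 1418 on stele replicate 2 against 311 on replicate 1 and 2011 on replicate 3. The 2 named markers of the epidermis, out of 3 listed, summed to 705 on epidermis replicate 2, between its partners at 589 and 887. On stele replicates 1 and 2 they summed to 608 and 633, against 81.2 on stele replicate 3. The listed columella marker, AT1G65570, was at 12.2 on epidermis replicate 2 against 570 and 766 on its partners. On stele replicate 1 it was at 467, against 8.10 and 100 on stele replicates 2 and 3. The part of these marker differences in the members' values was not tested.

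Whether the members also differed among the columella, epidermis, cortex and stele was tested without the endodermis contrast that drew attention to the family. All members were listed with results of these arrays known, so the p-values are not independent of that choice. With all 15 arrays, limma's moderated F test over these 4 populations called 0 of 5 members, against 62.8% of all probe sets tested, and 0 of 5 at an unadjusted p under 0.05. The same test with array quality weights called 3. Benjamini-Hochberg adjusted p-values were 0.0839 for AT1G55210, 0.138 for AT4G11190, 0.727 for AT2G21100, 0.934 for AT4G13580 and 0.951 for AT2G39430. Of the 30 pairwise comparisons (6 pairs for each of 5 members), 1 was called, meaning an adjusted p under 0.05 together with at least 1 log2 unit, where 25.9% of such comparisons over all probe sets tested were. That call was AT1G55210, lower in the epidermis than in the cortex by -2.71 ± 0.91 (SE) in log2 (limma, adjusted p = 0.0245), a contrast in which 17% of all probe sets tested were called lower. Without epidermis replicate 1 the difference was -1.78 and the call was lost (limma, adjusted p = 0.130). It was also lost, at a similar size, without epidermis replicate 3 (-2.45, adjusted p = 0.0738), cortex replicate 2 (-2.68, adjusted p = 0.0615) or cortex replicate 3 (-2.60, adjusted p = 0.0676).

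Without epidermis replicate 2 and stele replicate 1, the F test called 3 of the 5 members over the 4 populations, against 81.3% of all probe sets tested. AT1G55210 had a limma adjusted p of 2.8e-07, AT4G11190 of 7.68e-05 and AT4G13580 of 0.000212. AT2G39430 (adjusted p = 0.304) and AT2G21100 (adjusted p = 0.277) did not pass. Of the 30 pairwise comparisons 12 were called, against 34.5% over all probe sets tested. The epidermis was the lower side in 9 of the 12, since AT1G55210, AT4G11190 and AT4G13580 were each lower there than in the columella, the cortex and the stele. With all 15 arrays the 12 differences had the same sign and were smaller or about as large. However, 7 of the 12 took the opposite sign under at least 1 of the 24 alternatives. Apart from the fit without both arrays, each alternative kept epidermis replicate 2, stele replicate 1 or both. The alternatives therefore do not show how stable the fit without both is, and the direction of those 7 depended on which arrays were kept.

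In the fit of 13 arrays AT1G55210 was lower in the epidermis than in the cortex by -3.91 ± 0.37 (SE) in log2 (limma, adjusted p = 1.83e-07) and lower than in the stele by -3.55 ± 0.41 (adjusted p = 4.93e-06). Columella minus cortex was -1.90 ± 0.33 (adjusted p = 0.000107). With 15 arrays these differences were -2.71, -1.29 and -1.89, and none of the 3 turned in any alternative. Columella minus epidermis was 2.01 ± 0.37 (adjusted p = 0.000315) and columella minus stele -1.54 ± 0.37 (adjusted p = 0.00231), against 0.82 and -0.47 with 15 arrays. With only epidermis replicate 1 left out of the 15 arrays, the former turned to -0.11. With only stele replicate 3 left out, the latter turned to 0.13. Cortex and stele did not differ beyond their error (0.36 ± 0.37, cortex minus stele, adjusted p = 0.428). The epidermis of this fit rests on replicates 1 and 3, at 5.62 and 39.0 in the normalization of all 15 arrays. The former is under the low-signal threshold, so the size of the epidermis differences is not resolved.

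AT4G13580 in the fit of 13 arrays was lower in the epidermis than in the stele by -3.43 ± 0.58 (SE) in log2 (limma, adjusted p = 0.000246), and than in the cortex by -2.66 ± 0.53 (adjusted p = 0.000379). Columella minus epidermis was 2.37 ± 0.53 (adjusted p = 0.00144). With all 15 arrays the 3 differences were -0.33 ± 1.27, -0.83 ± 1.27 and 0.54 ± 1.27 and none was called. With only stele replicate 2 left out of the 15, epidermis minus stele was 1.04. With only epidermis replicate 1 left out, epidermis minus cortex was 0.20 and columella minus epidermis -0.49. Epidermis replicate 2 and stele replicate 1 were still in these fits. They therefore do not show whether the direction in the 13-array fit rests on a single array. The epidermis of the 13-array fit rests on replicates 1 and 3. In the normalization of all 15 arrays they were at 4.20 and 11.8, both under the low-signal threshold. The size of these differences is therefore not resolved. Columella, cortex and stele did not separate from each other, the largest of those differences being -1.06 ± 0.53 (columella minus stele, adjusted p = 0.105).

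In the fit of 13 arrays AT4G11190 differed between epidermis and cortex by -2.67 ± 0.40 (SE) in log2 (limma, adjusted p = 2.41e-05) and between columella and cortex by -1.57 ± 0.36 (adjusted p = 0.00117). With 15 arrays these were -1.70 and -1.57, and neither turned in any alternative. Epidermis minus stele was -1.83 ± 0.44 (adjusted p = 0.00412), against -0.26 with 15 arrays and 0.37 with only stele replicate 2 left out of the 15. Columella minus epidermis passed the test at 1.11 ± 0.40 (adjusted p = 0.0305), against 0.14 with 15 arrays. However, the 3 columella arrays and epidermis replicates 1 and 3 (1.19 and 0.865) were all under the low-signal threshold for this probe set, so that call is not read as an order of the 2 populations, and the size of the other epidermis differences is not resolved. In these calls the background was 19.4% lower for epidermis minus cortex, 11.4% lower for epidermis minus stele, 15.8% higher for columella minus epidermis, 17.8% lower for columella minus cortex and 18.4% lower for columella minus stele. With all 15 arrays, epidermis minus stele was called for 0% of all probe sets tested in either direction.

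**Figure D2:**
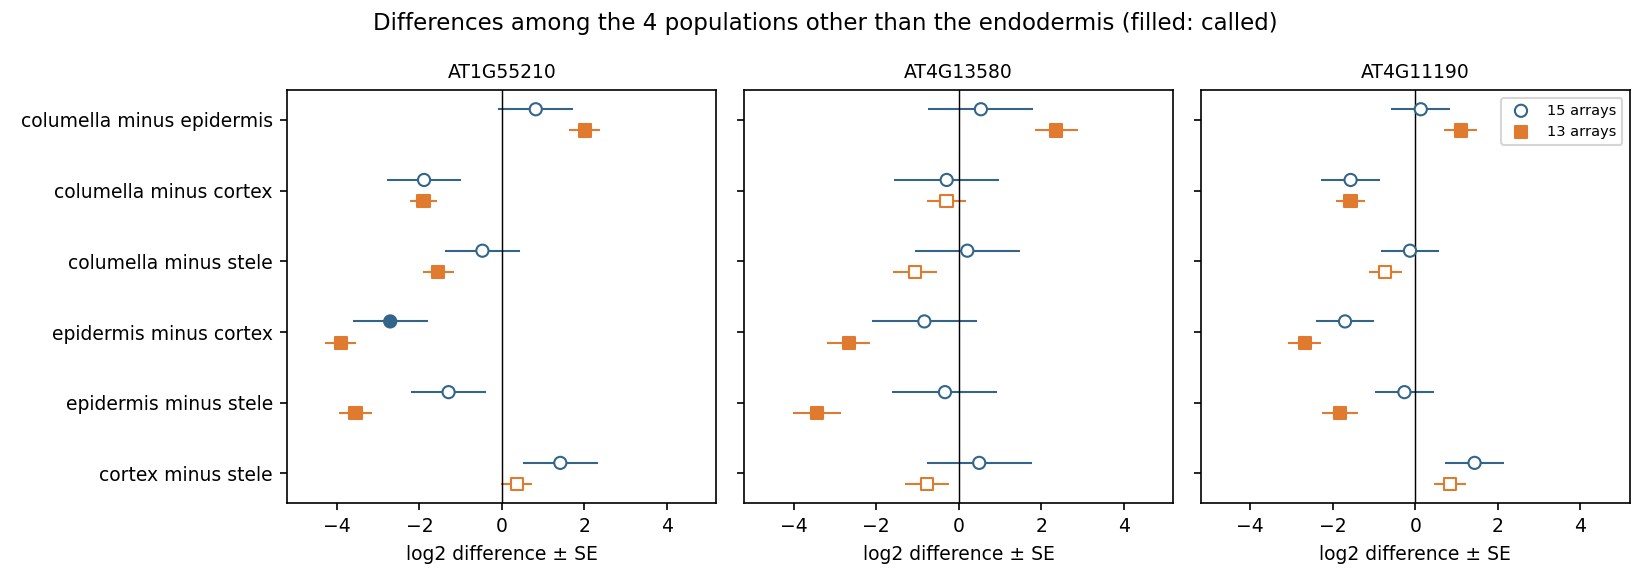
Differences between pairs of populations other than the endodermis for AT1G55210, AT4G13580 and AT4G11190, as log2(signal + 16) differences with standard errors; circles are the fit of 15 arrays, squares the fit of 13 arrays without epidermis replicate 2 and stele replicate 1, and filled symbols are called. With 15 arrays only epidermis minus cortex of AT1G55210 is filled (-2.71), while 12 squares are.

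Across the 15 arrays the members' log2 values correlated with each other at Pearson's r of 0.66 to 0.98. Over the 12 arrays outside the endodermis the pair AT4G13580 and AT2G39430 had r = 0.91 and the pair AT1G55210 and AT4G11190 had r = 0.87, whereas AT1G55210 and AT2G21100 had r = 0.25. These coefficients describe arrays that the members share, epidermis replicate 2 and stele replicate 2 among them, and carry no p.

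The genes most like each member were ranked by Pearson's r over the 15 arrays among 8850 other genes with a probe set of their own. AT4G13580 was most like AT1G61590 (0.966), AT4G11190 (0.961), AT2G22620 (0.961), AT5G65530 (0.961) and CCR2 (0.959), a cinnamoyl-CoA reductase. AT2G39430 was most like AT1G43020 (0.987), AT3G23160 (0.986), AT4G34220 (0.984), AT1G71740 (0.984) and AT2G21100 (0.982). AT2G21100 in turn was most like AT3G23160 (0.991), AT2G37950 (0.982) and AT2G39430 (0.982). The top genes for AT4G11190 were AT3G22620 (0.983), AT4G17215 (0.974) and TRM21 (0.973), and those for AT1G55210 were AT5G22850 (0.973), AT1G03040 (0.963) and AT3G55430 (0.959). Between 36 and 69 genes passed r = 0.9 with each member, so the named ones are the top of a larger group. Those named for AT1G55210 were not confined to the endodermis. Their mean signals in the endodermis and cortex were 988 and 632 for AT5G22850, 589 and 307 for AT1G03040, and 2317 and 1605 for AT3G55430. Over the 5 population means, 3 of these 19 names were again at the top.

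Of the 15 other loci on the family list, 8 had a probe set of their own and 3 of these passed the filter. With all 15 arrays 2 of the 3 were called higher in the endodermis, against 7.83% of all probe sets tested. Endodermis signal drew attention to the family, so the endodermis differences and adjusted p-values of these loci describe the arrays and are no independent test. AT3G13650 was high in both ground tissue populations. Its normalized signal was 1272, 1114 and 1156 in the cortex and 1269, 568 and 1751 in the endodermis, and 134, 253 and 259 in the stele, 54.6, 256 and 70.3 in the epidermis and 27.2, 74.9 and 36.0 in the columella. The cortex arrays lay within the range of the endodermis arrays, and both populations were above every array of the other 3. AT3G13650 was the family locus for which the F test over the 4 populations outside the endodermis passed with 15 arrays at the lowest adjusted p (limma, 2.59e-05).

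For AT3G13650 columella minus cortex was -4.34 ± 0.49 (SE) in log2 (limma, adjusted p = 7.07e-06). Epidermis minus cortex was -3.34 ± 0.49 (adjusted p = 8.84e-05) and cortex minus stele was 2.42 ± 0.49 (adjusted p = 0.00116). Columella minus stele was -1.92 ± 0.49 (adjusted p = 0.00776). Over all probe sets tested, 16.5% were called lower for columella minus cortex, 17% lower for epidermis minus cortex, 16.6% higher for cortex minus stele and 12.9% lower for columella minus stele. The endodermis exceeded the mean of the other 4 populations by 2.40 ± 0.39 (adjusted p = 0.000581), and endodermis minus cortex was -0.12 ± 0.49 (adjusted p = 0.896). Without the pair of arrays that stood apart, epidermis minus stele was also called (-1.82 ± 0.40, adjusted p = 0.00245). For AT1G55210, the member with the smallest endodermis difference, cortex minus the rest was 1.18 ± 0.72 and was not called (adjusted p = 0.192).

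AT4G11210, the neighbour of AT4G11190 on chromosome 4 with no protein-coding gene between them, gave 830, 387 and 525 in the endodermis. Epidermis replicate 2 was at 463 and stele replicate 2 at 529, both within the endodermis range, and stele replicate 3 was at 168. The remaining 9 arrays were between 3.51 and 68.9. The endodermis difference was 3.03 ± 0.86 (SE) in log2 (limma, adjusted p = 0.0228). That call was lost when any endodermis array was left out of the 15, with a difference of 2.73 to 3.28 (adjusted p from 0.053 to 0.116). In the fit without epidermis replicate 2 and stele replicate 1 it was 3.04 ± 0.34 and was called (limma, adjusted p = 1.9e-06). There 9.17% of all probe sets tested were called higher. Without the pair of arrays that stood apart, the stele was above the columella (columella minus stele -2.66 ± 0.46, adjusted p = 0.000157), the epidermis (epidermis minus stele -3.39 ± 0.51, adjusted p = 8.57e-05) and the cortex (cortex minus stele -2.72 ± 0.46, adjusted p = 9.37e-05), and endodermis minus stele was 0.85 ± 0.46 (adjusted p = 0.158). The stele of that fit rests on replicates 2 and 3. In the normalization of all 15 arrays, epidermis replicates 1 and 3 were at 24.3 and 7.01. Cortex replicates 2 and 3 were at 12.8 and 31.0, and columella replicate 1 was at 25.1. All of these were under the low-signal threshold, so the size of the differences from the stele is not resolved. With all 15 arrays columella minus stele was -1.29, epidermis minus stele -0.71 and cortex minus stele -1.36. None of them was called (limma, adjusted p = 0.373, 0.889 and 0.326). Epidermis minus stele reached 0.35 when 1 array was left out of the 15, so its direction depended on which arrays were kept. Of all probe sets tested in the fit without the pair, 21.4% were called lower for cortex minus stele. In the normalization of all 15 arrays, AT4G11190 was at 81.3 and 22.6 on stele replicates 2 and 3, beside an endodermis of 1366 or more.

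AT3G58090 stayed between 10.5 and 50.3 on all arrays, with the cortex lowest. Its F test passed (limma, adjusted p = 0.0114), yet no pairwise difference reached 1 log2 unit with 15 arrays. Without the pair of arrays that stood apart, epidermis minus cortex was called at 1.22 ± 0.26 (adjusted p = 0.000863), where 21.1% of all probe sets tested were called higher. With 15 arrays its endodermis difference was -0.06 ± 0.20 (adjusted p = 0.879).

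**Figure D3:**
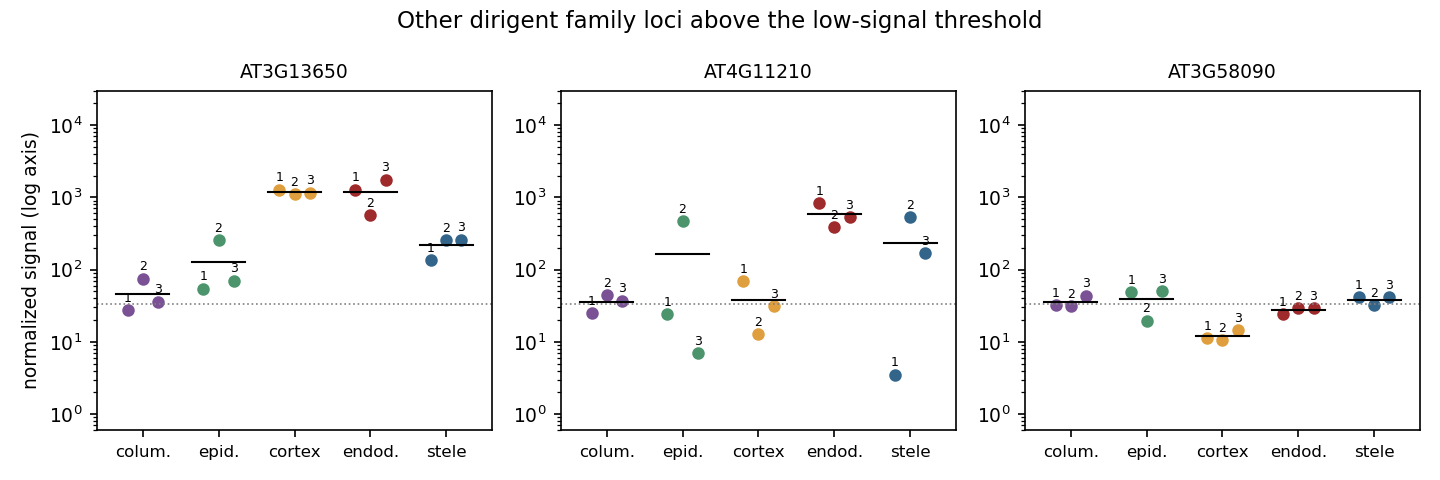
Normalized signal (log axis) on each of the 15 arrays for the 3 other dirigent family loci that passed the filter; points are arrays numbered by replicate, bars are population means of the signal and the dotted line is the low-signal threshold of 32.9. AT3G13650 is high in cortex and endodermis, AT4G11210 is high in the endodermis and on replicate 2 of the epidermis and stele, and AT3G58090 stays at or under 50.3.

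The other genes of phenolic wall synthesis were taken from lists also written with results of these data known. The differences and adjusted p-values of these list genes below therefore describe the arrays and are no independent test. Over the lists, 9 genes outside the dirigent family passed the filter, and 8 of the 9 were called higher in the endodermis, against 7.83% of all probe sets tested. None was called lower there, against 3.42%. In the cortex 13.3% of all probe sets tested were called higher.

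Of 17 Casparian strip genes, 3 were tested and 3 were higher in the endodermis, with a median difference of 4.55 in log2 against -0.09 over all probe sets. AT1G61590 averaged 4064 ± 68.0 (SD, n = 3) in the endodermis and differed by 6.10 ± 0.81 (SE; limma, adjusted p = 0.000104). GSO1, a receptor kinase needed for an unbroken Casparian strip, averaged 3707 ± 377 in the endodermis and 1254 ± 133 in the cortex, with differences from the rest of 4.55 ± 0.59 (adjusted p = 9.12e-05) and 2.61 ± 0.59 (adjusted p = 0.0024). It is also 1 of the 3 endodermis markers above. AT4G34600 averaged 129 ± 16.2 and differed by 1.94 ± 0.41 (adjusted p = 0.00432).

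Among 5 class III peroxidases, enzymes that make the phenolic radicals, 3 were tested and 3 were higher in the endodermis, with a median of 6.02. PEROXIDASE 72 (AT5G66390) differed by 6.27 ± 1.23 (SE; limma, adjusted p = 0.0025), AT4G11290 by 6.02 ± 1.20 (adjusted p = 0.00262) and AT1G44970 by 5.88 ± 0.53 (adjusted p = 3.87e-06). As with the members, the highest epidermis array of PEROXIDASE 72 reached 1883 and of AT4G11290 reached 1579, with lowest epidermis values of 3.38 and 1.14.

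Monolignol synthesis had 2 of 18 listed genes tested, and both were higher in the endodermis. CCR2 averaged 1091 ± 301 (SD, n = 3) there and no more than 58.5 on average in any other population, a difference of 4.87 ± 0.59 (SE; limma, adjusted p = 4.75e-05). HCT, a hydroxycinnamoyl transferase earlier in the same pathway, averaged 3513 ± 657 in the endodermis and 3365 ± 679 in the cortex, with differences of 2.10 ± 0.44 (adjusted p = 0.00374) and 2.02 ± 0.44 (adjusted p = 0.00171). On the lignan list, 1 of 3 genes was tested. UGT71C1, a glucosyltransferase, averaged 2603 ± 243 in the cortex and 417 ± 234 in the endodermis. It was higher in the cortex by 3.06 ± 0.40 (adjusted p = 2.93e-05), and its endodermis difference was -0.42 ± 0.40 (adjusted p = 0.512).

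Of 17 laccases only LAC16 had a named probe set, under the filter, and none of the 9 suberin genes had one. With the pair of arrays that stood apart left out, 8 of the 9 genes were again called higher in the endodermis.

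**Figure D4:**
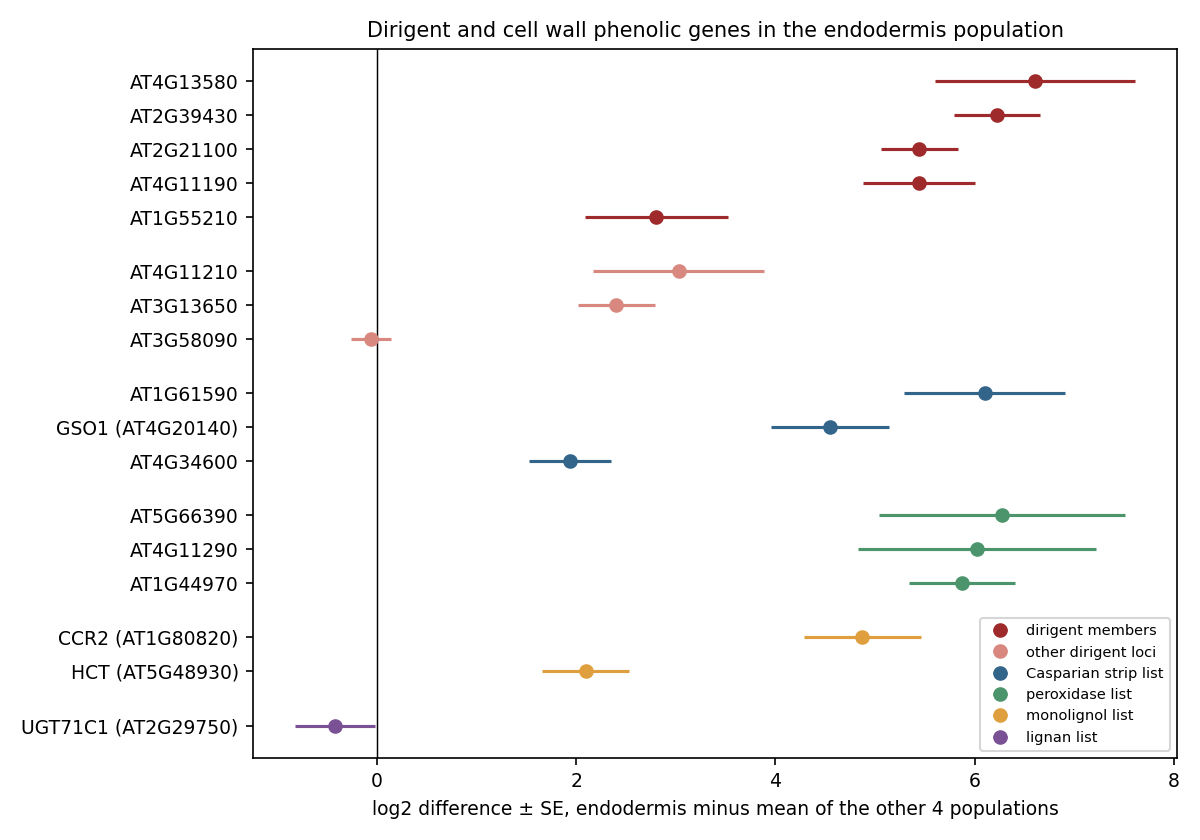
Endodermis minus the mean of the other 4 populations, as log2(signal + 16) differences with standard errors from the fit of 15 arrays, for the 5 dirigent members, the 3 other dirigent loci and the 9 list genes that passed the filter; colours give the list. The members run from 2.81 to 6.61, AT3G58090 and UGT71C1 lie at -0.06 and -0.42, and the 3 peroxidases lie between 5.88 and 6.27.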

How the data were processed

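Signal intensity of 22810 probe sets on 15 arrays was deposited on a linear scale; the submitters' processing notes name MAS5. Per the labels' protocols, biotinylated cRNA came from a protocol with 2 rounds of amplification. Not given in the sources used here are the version of MAS5, its scaling target and the genome build. Array medians differed by 1.76 times, so the intensities were quantile normalized, control probe sets were then dropped (64), and log2(signal + 16) was fitted with limma 3.58.1 (R 4.3.3; lmFit, then eBayes with a trend) as 5 population means. A probe set was tested if above the 40th percentile of its array on at least 3 arrays (16123 tested, threshold about 32.9). Calls needed a Benjamini-Hochberg adjusted p under 0.05 over all probe sets tested and, for contrasts, a log2 difference of at least 1. Tables and plots used Python 3.11.15, pandas 2.3.3, numpy 2.4.6 and matplotlib 3.10.9. The fit was tested on simulated data.

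Names came from the platform annotation: 13513 probe sets had 1 gene, 503 several and 8794 none. Neighbours came from RefSeq (TAIR10.1). The text names the 10 members, each list gene that passed the filter, and the top 5 most alike genes for AT4G13580 and AT2G39430 and top 3 for the other members; family loci under the filter, LAC16 and the markers are named in addition. Members, lists and tests were chosen with earlier results of these data known. Alternatives changed the scaling, pseudocount, filter, trend, array weights, replicate block and arrays used. The number of arrays limits the precision, detection calls were not used, and no sequences are shown.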

Additional observations from a re-analysis of the deposited data

How the results depend on the processing

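The endodermis differences of the 5 members stayed at 1 log2 unit or more, and 8 of the 9 list genes stayed called, in each of the 24 alternatives. No difference called with all 15 arrays and recomputed under the alternatives changed sign, whereas 7 of the 12 pairwise differences called without epidermis replicate 2 and stele replicate 1 did under at least 1 alternative. Each of the other alternatives kept at least 1 of those arrays, so the fit without both was not itself varied. Tests outside the endodermis did change. The main F test count of 0 members became 3 with array weights and 3 without epidermis replicate 2 and stele replicate 1 together, and it was 0 to 2 when 1 array was left out (2 without epidermis replicate 2, 1 without stele replicate 1). The main count of 1 pairwise call became 2 with a pseudocount of 1, 10 with array weights, 12 without both arrays, and 0 to 7 when 1 array was left out (7 without epidermis replicate 2, 3 without stele replicate 1 and 3 without stele replicate 2). The 2 other family loci called higher in the endodermis became 1 with a pseudocount of 1, and 1 to 2 when 1 array was left out, AT4G11210 being lost (limma adjusted p = 0.0504 with the pseudocount of 1). Of the 19 most alike names, 3 were shared over the 5 population means. The cause was not tested.

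Replicate numbers are shared by all populations, but only 6 of 30 pairs of same-numbered arrays had deviations correlated above 0.1 (range -0.52 to 0.72), so the numbers were not taken to pair the arrays. With the replicate block, 2 pairwise calls were made in place of 1, and no other count differed. The deposited scaling moved the median of all probe sets for cortex minus the rest from -0.07 to -0.22 and changed none of these counts except most alike names, of which 15 of 19 were shared. Promoter motifs were planned and not run, since no sequences were used here. Values under the threshold of 32.9 have no reliable order, which limits the differences of AT2G21100, AT4G11190 and AT4G13580 outside the endodermis. The same holds for the epidermis differences of AT1G55210 and the cortex differences of AT3G58090. It also holds for the columella, epidermis and cortex differences of AT4G11210 from the stele.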

Other observations

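Most other named members of the family were near the floor of the array in all 5 populations. AT2G21110, separated from AT2G21100 by 1 protein-coding gene, was between 2.18 and 35.1 on the 15 arrays, with its highest value on stele replicate 1. AT3G13660 and AT3G13662, which directly follow AT3G13650, were between 0.913 and 33.3 and between 1.00 and 10.8. AT4G38700 was between 4.47 and 38.8, and AT1G58170 between 1.02 and 41.6. These 5 loci were not tested.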
